A study of Mus musculus with 15 samples.

Results

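TAMs, the macrophages that infiltrate a tumor, were sorted from orthotopic liver tumors in C57BL/6 mice, and the mRNA levels of splicing factors and hnRNPs were compared in 15 samples of 3 groups. The tumors grew from luciferase-expressing Hepa1-6 cells, a mouse hepatoma line, that carried a control lentivirus (the control group), a lentivirus overexpressing miR-144 or one overexpressing miR-451a, with 5 samples in each group. The miRNA was thus overexpressed in the tumor cells and not in the TAMs that were sequenced, and the sort used CD11b and F4/80. The ages of the mice and whether a sample was 1 mouse or a pool are not given in the sources used here, so p-values measure the spread between these samples, which may be technical. The study's own account of the TAM sequencing gives fewer replicates than the labels list, and the labels were followed here. The series asked whether anti-tumor molecules in TAMs increase when either miRNA is overexpressed in the tumor. The genes described here were the rows of the expression table whose symbol begins with Srsf and a digit, Hnrnp, Sf3a or Sf3b and a digit, Snrp, U2af or Prpf and a digit, after 4 rows marked -ps were left out. This gave 70 of the 55335 rows, with 69 symbols because U2af1l4 has a pair of rows. Of these 70 genes, 68 reached a mean of 1 FPKM over the 15 samples and were tested, among 11419 tested genes in all. FPKM is a level per length of transcript and per mapped fragment, so that levels of different genes can be set beside each other. Group values written with ± are the mean and SD over the samples of a group (n = 5).

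Splicing removes introns from a pre-mRNA and is carried out by the spliceosome, which is built from small nuclear ribonucleoproteins (snRNPs). The U1 snRNP binds the start of the intron, U2AF and the U2 snRNP with its SF3a and SF3b subcomplexes recognise the branch point and the end of the intron, and the tri-snRNP of U4, U6 and U5, which holds many Prpf proteins, completes the machine. The Sm proteins form the ring around which a snRNP is assembled. SR proteins bind exons and mostly promote their inclusion, whereas hnRNPs coat the nascent RNA and often repress the use of nearby splice sites. Macrophages change the splicing of many transcripts when they are activated, and several of these factors control their own level through exons that lead to decay of the mRNA.

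The summed level of the splicing factors and hnRNPs was higher in both miRNA groups than in control TAMs. The sum over the 70 genes was 1228, 1265, 1188, 1221 and 1260 FPKM in the control samples, 1414, 1368, 1322, 1370 and 1334 FPKM with miR-144 and 1374, 1378, 1387, 1406 and 1349 FPKM with miR-451a, and neither miRNA group overlapped the control group. Relative to all genes, the groups overlapped. The mean log2(FPKM + 1) of the 68 tested genes minus that of all tested genes was 0.7653 to 0.8031 in control samples. It was 0.7669 to 0.8254 with miR-144 and 0.7865 to 0.8426 with miR-451a. In bulk TAMs, fewer cells of a type and less RNA per cell cannot be told apart. In limma on log2(FPKM + 1), 36 of the 68 tested genes rose with miR-144, 4 fell and 28 did not pass an adjusted p of 0.05. Thus 58.8% were called, against 67.2% of all 11419 genes. The share higher was 52.9% against 47.1% of all genes, and the share lower was 5.88% against 20.1%. With miR-451a, 38 rose, 5 fell and 25 did not pass, so that 63.2% were called against 68.3% of all genes, 55.9% higher against 48.1% and 7.35% lower against 20.3%. Both comparisons used the same control samples. The shares that changed were not above those of all genes, and 90% and 88.4% of the calls were rises, against 70.1% and 70.3% in all genes.

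The median difference of the 68 genes was 0.13 on the log2 scale in the miR-144 comparison and 0.14 in the miR-451a comparison, and the median of all 11419 genes was likewise 0.13 and 0.14. Values did not overlap between the miRNA and control groups for 31 of the 68 genes (45.6%) in each comparison, against 53.9% of all genes in the miR-144 comparison and 55.2% in the other. All genes together were shifted upward by these medians, and the direction of small changes depended on the scaling. With each sample centred on its median, 14 genes were higher and 13 lower with miR-144, and 18 were higher and 14 lower with miR-451a. Thus 39.7% and 47.1% of the 68 genes were called on that scale, against 61.5% and 63.2% of all genes. The 14 genes called higher in both comparisons under all 4 scalings were Hnrnpa1, Hnrnpdl, Hnrnph3, Hnrnpu, Hnrnpul1, Prpf39, Prpf4, Prpf4b, Sf3a1, Sf3b1, Sf3b2, Snrpb2, Srsf11 and Srsf5. Under median centring 22 of the 36 rises with miR-144 and 20 of the 38 with miR-451a were no longer called. The 3 genes called lower in both comparisons under all 4 scalings were Hnrnpll, Prpf31 and Sf3b4.

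**Figure D1:**
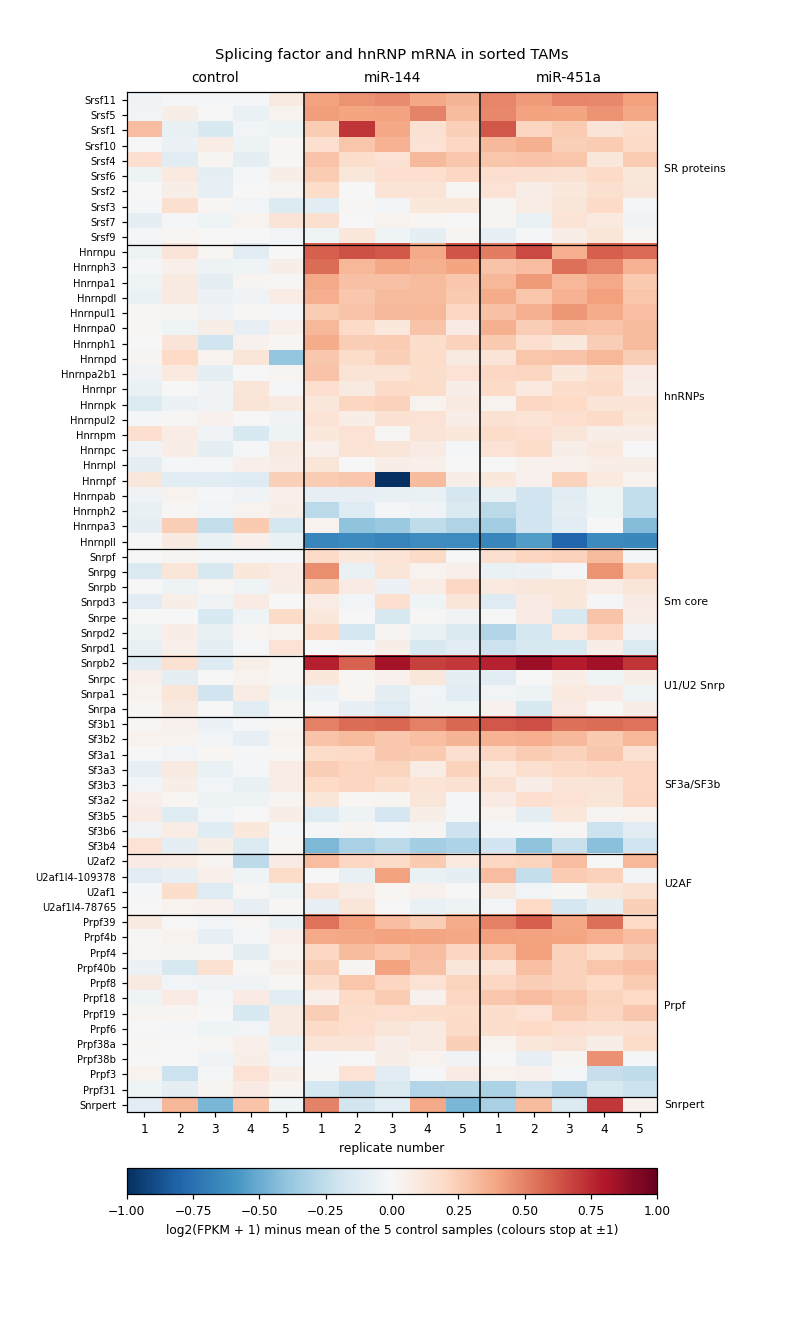
Each row is 1 of 67 of the 68 tested genes and each column 1 of the 15 samples, and the colour is log2(FPKM + 1) minus the mean of the 5 control samples, with classes separated by lines. Snrpb2, Hnrnpu, Sf3b1, Srsf5 and Srsf11 are higher and Hnrnpll is lower in all 10 miRNA samples, while most Sm proteins stay near the control mean and Hnrnpf is low in a single miR-144 sample.

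Between the TAMs of the miRNA groups, 0 of the 68 genes and 0% of all genes passed an adjusted p of 0.05 in limma, while 3 of the 68 and 596 of the 11419 genes had an unadjusted p under 0.05. The differences of the 68 genes, miR-451a minus miR-144, lay between -0.11 and 0.15 with a median of 0.02. The 3 with the smallest p in limma were Sf3a2, Prpf18 and Hnrnpul1, with differences of 0.09, 0.11 and 0.07 (limma, adjusted p = 0.946 for each). The values of all 3 overlapped between the miRNA groups.

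Promoters are shown for 4 of the 5 genes with the largest rises with miR-144, leaving out Srsf11, and for 2 of the 4 genes called lower in both comparisons. Those of Hnrnpll and Sf3b4, which fell most, are not printed, and Hnrnpab, which is, had the smallest fall of the 4 called lower in both comparisons. RefSeq promoter windows, 250 bases before to 50 bases after the annotated start on GRCm38.p6, were found for 57 of the tested genes, 75 windows in all. The ETS core motif CCGGAAG, searched on both strands, was in 33.3% of these windows against 8.86% of the 32851 windows of all genes. CCAAT on either strand was in 49.3% against 37.4%, the GC box GGGCGG in 66.7% against 35.7%, the TATA box TATAAA in 8% against 13.6%, the YY1 core AAGATGG in 4% against 6.34% and the NRF1 motif GCGCATGC in 5.33% against 2.71%. The median ratio of observed to expected CpG was 0.952 against 0.384, and 94.7% of the windows were above 0.6 against 35.8% of all windows. The windows of all genes include many genes that are not expressed in TAMs. CCGGAAG and AAGATGG can overlap by 3 letters. A match is a description of the letters and not of binding. The 100 bases before the start are printed here 5′ to 3′ in lower case, with capitals for CCGGAAG and CCAAT on either strand, for 4 genes that rose and 2 that fell.
Snrpb2, chr2:143062969-143063068, plus strand: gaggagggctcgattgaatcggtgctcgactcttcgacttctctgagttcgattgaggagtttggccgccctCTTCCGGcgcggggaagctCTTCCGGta
Srsf5, chr12:80945399-80945498, plus strand: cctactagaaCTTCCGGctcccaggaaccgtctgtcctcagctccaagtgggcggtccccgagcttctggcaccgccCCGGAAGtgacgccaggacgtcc
Sf3b1, chr1:55027479-55027578, minus strand: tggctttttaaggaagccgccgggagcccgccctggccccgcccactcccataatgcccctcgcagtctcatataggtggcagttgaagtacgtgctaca
Hnrnpu, chr1:178337816-178337915, minus strand: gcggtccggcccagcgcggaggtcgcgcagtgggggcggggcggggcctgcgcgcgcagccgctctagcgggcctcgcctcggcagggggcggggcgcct
Prpf31, chr7:3629885-3629984, plus strand: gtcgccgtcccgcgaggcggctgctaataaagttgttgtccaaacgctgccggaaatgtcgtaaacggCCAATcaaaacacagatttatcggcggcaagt
Hnrnpab, chr11:51606882-51606981, minus strand: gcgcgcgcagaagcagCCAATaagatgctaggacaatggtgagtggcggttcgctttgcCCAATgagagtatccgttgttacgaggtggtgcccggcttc

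Snrpb2 encodes the B″ protein of the U2 snRNP, and its mRNA showed the largest rise of the set. The gene (ENSMUSG00000008333) lies on chromosome 2 from 143063039 to 143072853 on the plus strand of GRCm38 in GENCODE M21. Its values were 8.42, 10.2, 8.26, 9.54 and 9.27 FPKM in control TAMs, 16.3, 14.2, 17.0, 15.3 and 15.5 FPKM in the miR-144 group and 16.3, 17.3, 16.5, 17.1 and 15.6 FPKM in the miR-451a group. The miRNA groups did not overlap the control group, with differences of 0.72 for miR-144 and 0.79 for miR-451a (standard error 0.06, adjusted p = 2.47e-08 and 7.3e-09). Its promoter, printed above, holds a pair of ETS cores on the minus strand. The other U1 and U2 proteins of this group did not pass the test. Snrpa, the A protein of U1 and the closest relative of Snrpb2, had 14.0, 14.8, 13.8, 12.7 and 14.0 FPKM in control TAMs, 13.7, 13.1, 12.6, 13.5 and 13.4 FPKM in the miR-144 group and 14.3, 12.3, 14.69, 14.0 and 14.5 FPKM in the miR-451a group. These values overlapped, with differences of -0.06 for miR-144 and 0.01 for miR-451a (standard error 0.05, adjusted p = 0.272 and 0.893). Snrpa1, the A′ protein that partners the product of Snrpb2 on U2 snRNA, had means of 4.33, 4.13 and 4.36 FPKM and was not called in either comparison. Snrpc, the C protein of U1, was not called either (adjusted p = 0.515 and 0.915). With median centring, Snrpa and Snrpa1 were called lower in both comparisons and Snrpc with miR-451a.

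The ratio of Snrpb2 to Snrpa within a sample was 0.660 ± 0.0643 in control TAMs, 1.18 ± 0.102 with miR-144 and 1.19 ± 0.131 with miR-451a. A ratio within a sample is not changed by a factor applied to the whole sample, although quantile normalization can change it, and here the miRNA groups did not overlap the control group. The ratio shows unequal change of the pair and not which of them changed.

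Genes of the Sm ring had few calls next to the size of the class, 14.3% in each comparison against 67.2% and 68.3% of all genes. Of the 7 tested, Snrpf rose in both comparisons (difference 0.13 with adjusted p = 0.0472 and 0.18 with adjusted p = 0.00682), although its miR-144 difference turned negative under median centring, and the other 6 did not pass. The Sm sum was 92.8 ± 3.10 FPKM in control TAMs, 97.9 ± 5.85 with miR-144 and 97.9 ± 4.55 with miR-451a, with overlapping groups. Snrpb, which encodes SmB and was the most abundant of them, had means of 36.3, 39.5 and 39.1 FPKM, with differences of 0.11 and 0.10 (adjusted p = 0.0523 and 0.071). Its call was sensitive to single libraries, since it passed with miR-144 without control sample 5 (adjusted p = 0.0389) or miR-144 sample 3 (adjusted p = 0.00368), and with miR-451a without miR-144 sample 1 (adjusted p = 0.0396) or 3 (adjusted p = 0.0257). Under median centring and quantile normalization, the Sm class had 0 higher and 1 lower in each comparison, the lower one being Snrpd1. Snrpn, an imprinted SmB relative known from brain, was listed between 0.0963 and 0.399 FPKM and was not tested. The reads of Snrpf and of Snrpe are shared in part with other transcripts, since 89.5% of the 50-base stretches of the longest Snrpf transcript occur in transcripts of Ccdc38 and 20.8% of those of Snrpe in other genes, mainly the processed pseudogene Snrpert. Snrpert itself, caught by the symbol rule, lay between 2.06 and 5.86 FPKM and was not called.

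The SF3 proteins hold the U2 snRNP on the branch point, and the large subunits of SF3b rose while Sf3b4 fell. Of 9 tested, 5 rose and 1 fell with miR-144, and 6 rose and 1 fell with miR-451a. Thus 66.7% and 77.8% were called, against 67.2% and 68.3% of all genes. Sf3b1 (ENSMUSG00000025982, chromosome 1, 54985169 to 55027481, minus strand), the subunit that clamps the branch point helix, had 25.8, 26.3, 24.6, 25.2 and 25.9 FPKM in control TAMs, 36.6, 38.1, 38.6, 36.6 and 38.6 FPKM in the miR-144 group and 39.9, 40.4, 37.9, 38.1 and 37.8 FPKM in the miR-451a group. It had differences of 0.54 for miR-144 and 0.58 for miR-451a (standard error 0.03, adjusted p = 3.64e-10 and 1.49e-10), and its control values lay below all 10 miRNA values. Sf3b4 (ENSMUSG00000068856, chromosome 3, 96172332 to 96177564, plus strand), which binds the RNA just upstream of the branch point, went the other way. Its values were 30.8, 26.1, 29.1, 25.3 and 28.3 FPKM in control TAMs, 20.1, 22.04, 22.9, 21.8 and 22.3 FPKM in the miR-144 group and 24.3, 20.8, 23.7, 20.5 and 24.1 FPKM in the miR-451a group. The groups did not overlap in either comparison, with differences of -0.34 for miR-144 and -0.29 for miR-451a (standard error 0.06, adjusted p = 0.000176 and 0.000657). Sf3b4 shares 51.2% of its 50-base stretches with other genes, mainly Gm7935, whose mean was 4.05 FPKM in control TAMs and 3.15 and 3.19 in the miRNA groups. The sum of both was lower in the miRNA groups as well, between 28.9 and 35.3 FPKM in control TAMs, 23.6 and 26.2 with miR-144 and 24.0 and 27.2 with miR-451a.

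Sf3b2, which contacts the RNA beside the branch point, rose from a mean of 27.8 FPKM to 34.5 and 35.1 FPKM (differences 0.30 and 0.33, adjusted p = 3.43e-07 and 1.39e-07), with no overlap. Sf3b3 and the SF3a subunits Sf3a1 and Sf3a3 rose by 0.14 to 0.22 in both comparisons, but under median centring Sf3b3 and Sf3a3 lost both calls and the miR-451a difference of Sf3b3 turned negative. The small subunits Sf3b5 and Sf3b6 were not called, with differences between -0.07 and 0.02. Phf5a, a small SF3b subunit from the list of other splicing genes, fell from 12.1 ± 0.584 FPKM to 10.2 ± 1.04 and 10.1 ± 0.454, with no overlap (differences -0.23 and -0.24, adjusted p = 0.00257 and 0.00183). The class split depended on scaling, with 3 higher and 3 lower under median centring with miR-144 and 3 higher and 2 lower with miR-451a. With centring, 66.7% and 55.6% were called, against 61.5% and 63.2% of all genes. The ratio of Sf3b2 to Sf3b1 was 1.09 ± 0.0288 in control TAMs, 0.914 ± 0.0258 with miR-144 and 0.904 ± 0.0247 with miR-451a, so that Sf3b1 lay below Sf3b2 in each control sample and above it in each miRNA sample. Sf3a2, another SF3a subunit, had means of 12.1, 12.7 and 13.5 FPKM and passed the test with miR-451a and not with miR-144 (adjusted p = 0.194 and 0.00273). Its differences turned negative under median centring, and the miRNA groups did not differ past the threshold (adjusted p = 0.946).

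**Figure D2:**
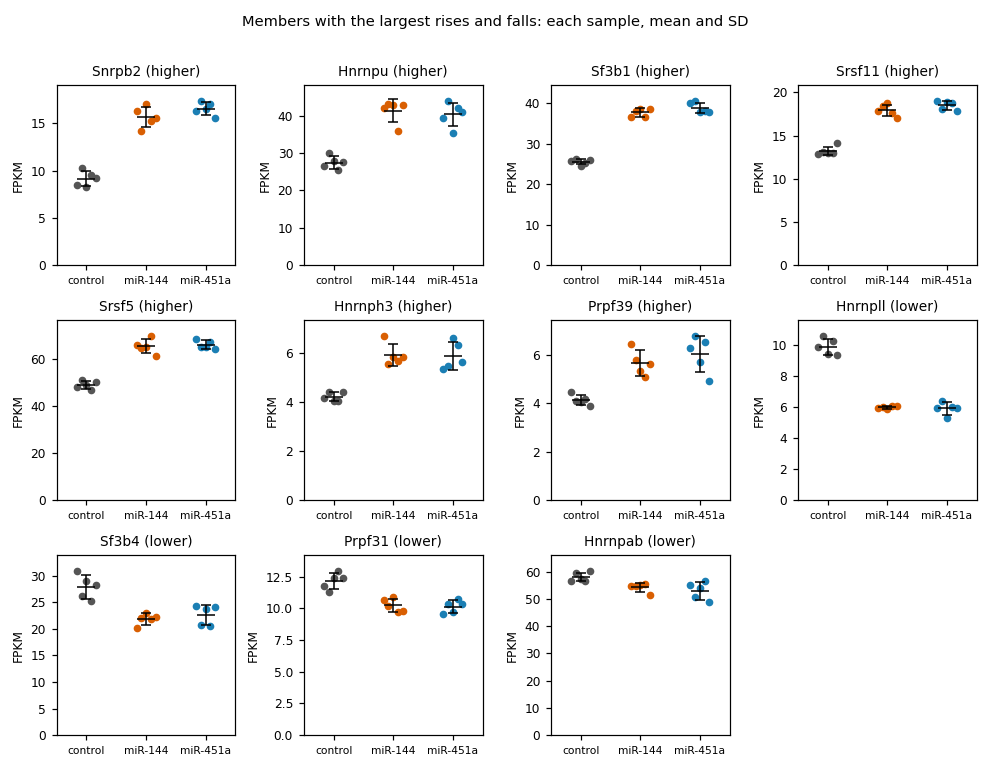
Each panel shows the FPKM of 1 gene in the 15 samples (points), with the mean and SD of each group of 5 (black), for the 7 genes with the largest rises and the 4 that fell in both comparisons. Snrpb2 lies between 8.26 and 10.2 FPKM in control samples and between 14.2 and 17.3 FPKM in the miRNA samples, and Hnrnpll between 9.37 and 10.54 FPKM in control samples and between 5.29 and 6.39 FPKM in the miRNA samples.

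U2AF binds the end of the intron ahead of U2. Its large subunit U2af2 rose from a mean of 30.6 FPKM to 35.5 and 35.6 FPKM (difference 0.21 for both, adjusted p = 0.0197 and 0.0184), and the miR-451a group overlapped the control group. Both calls were lost under median centring. The small subunit U2af1 had means of 13.9, 14.4 and 14.6 FPKM and was not called. The U2af1 values are uncertain because 59.4% of its 50-base stretches occur in other genes, mainly Gm10232. The 2 rows named U2af1l4 were not called (means of 3.01 to 3.46 FPKM), and the row ENSMUSG00000078765 shares 97.3% of its stretches with other genes, mainly the gene of the second row, named Gm49396 in GENCODE M21. With median centring, 0 genes of this class were called, against 61.5% and 63.2% of all genes.

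Of the Prpf genes, 10 of 13 were higher and 1 lower in each comparison (84.6% called, against 67.2% and 68.3% of all genes). This was the highest share of calls among the classes on the main scale but not under median centring. Most Prpf genes encode proteins of the tri-snRNP or of the steps that activate it. Prpf8, the U5 protein at the heart of the catalytic centre, was the most abundant. Its values were 49.6, 45.8, 45.4, 45.4 and 46.9 FPKM in control TAMs, 52.8, 56.6, 54.1, 51.7 and 54.5 FPKM in the miR-144 group and 54.0, 55.5, 54.8, 53.6 and 55.6 FPKM in the miR-451a group. The groups did not overlap, with differences of 0.21 for miR-144 and 0.23 for miR-451a (standard error 0.03, adjusted p = 2.89e-05 and 1.09e-05), although under median centring the miR-144 call was lost (0.07, adjusted p = 0.0548). Prpf4b, a kinase that acts on the tri-snRNP, had 10.6, 10.8, 9.81, 10.3 and 10.9 FPKM in control TAMs, 13.9, 14.0, 14.1, 14.0 and 13.9 FPKM in the miR-144 group and 14.2, 14.2, 14.0, 13.7 and 13.2 FPKM in the miR-451a group. Its spread was small next to the change, with differences of 0.39 for miR-144 and 0.38 for miR-451a (standard error 0.03, adjusted p = 2.4e-08 and 3.25e-08). Prpf39, which belongs to the U1 snRNP of yeast and is a U1-associated factor in mammals, had 4.45, 4.11, 4.04, 4.18 and 3.89 FPKM in control TAMs, 6.46, 5.81, 5.35, 5.08 and 5.62 FPKM in the miR-144 group and 6.28, 6.76, 5.71, 6.53 and 4.91 FPKM in the miR-451a group. It had differences of 0.37 for miR-144 and 0.45 for miR-451a (standard error 0.07, adjusted p = 0.00027 and 4.51e-05), without overlap. The longest Prpf39 transcript shares 11.8% of its stretches with other genes, mainly its neighbour Fkbp3.

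Prpf31 (ENSMUSG00000008373, chromosome 7, 3629985 to 3642486, plus strand), which joins U4/U6 to U5 in the tri-snRNP and is known as a retinitis pigmentosa gene, was the only Prpf gene that fell. Its values were 11.8, 11.3, 12.4, 12.9 and 12.4 FPKM in control TAMs, 10.6, 10.2, 10.9, 9.74 and 9.82 FPKM in the miR-144 group and 9.57, 10.3, 9.71, 10.8 and 10.3 FPKM in the miR-451a group. No miRNA sample reached the lowest control sample, with differences of -0.22 for miR-144 and -0.24 for miR-451a (standard error 0.04, adjusted p = 0.000311 and 0.000167). Its promoter, printed above, holds CCAAT and no ETS core, and the printed promoters of Sf3b1 and Hnrnpu, which rose, hold no ETS core either. Other genes of the tri-snRNP went in both directions. Lsm4 and Lsm2, which encode LSm proteins of U6, fell too, Lsm4 from 19.6 to 16.9 and 16.6 FPKM and Lsm2 from 2.11 to 1.65 and 1.59 FPKM. Of the other U6 LSm genes, Lsm6 rose in both comparisons, from 2.38 to 2.87 and 3.06 FPKM, Lsm5 passed with miR-451a and not with miR-144 (adjusted p = 0.0368 and 0.54), and Lsm3, Lsm7 and Lsm8 were not called. Prpf6, which bridges U5 and U4/U6, rose from 18.2 to 20.3 and 20.6 FPKM, and Prpf4 of U4/U6 from 3.28 to 4.14 and 4.17 FPKM, while Prpf3 of U4/U6 had means of 4.33, 4.41 and 4.02 FPKM and was not called. The ubiquitin ligase Prpf19 rose by 0.19 and 0.21. Prpf18, a second-step factor, had differences of 0.15 and 0.25 (adjusted p = 0.0145 and 0.000294). Prpf38b had a miR-451a sample at 17.2 FPKM, whereas the other 14 samples lay between 11.6 and 12.8 FPKM, and was not called. Under median centring, 3 Prpf genes were higher and 1 lower with miR-144 and 5 were higher and 2 lower with miR-451a. With centring, 30.8% and 53.8% were called, against 61.5% and 63.2% of all genes. Prpf6, Prpf18, Prpf19, Prpf38a and Prpf40b lost both calls.

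SR proteins bind exonic enhancers through RNA recognition motifs and are regulated by phosphorylation of their arginine and serine repeats. Of the 10 tested, 7 rose and 0 fell in each comparison, whereas under median centring 2 were higher and 1 lower with miR-144 and 3 were higher and 1 lower with miR-451a. Thus 70% were called in each comparison, against 67.2% and 68.3% of all genes. With centring, 30% and 40% were called, against 61.5% and 63.2% of all genes. The SR sum was 203 ± 4.57 FPKM in control TAMs, 237 ± 4.002 with miR-144 and 239 ± 5.08 with miR-451a, without overlap. Srsf5 (ENSMUSG00000021134, chromosome 12, 80945504 to 80950507, plus strand) was the most abundant SR gene. Its values were 48.1, 51.1, 49.0, 46.9 and 50.4 FPKM in control TAMs, 66.1, 64.8, 65.3, 69.6 and 61.5 FPKM in the miR-144 group and 68.8, 65.1, 65.0, 67.3 and 64.4 FPKM in the miR-451a group. The highest control sample lay more than 10 FPKM below the lowest miRNA sample, with differences of 0.41 for miR-144 and 0.42 for miR-451a (standard error 0.03, adjusted p = 6.55e-08 and 4.17e-08). Srsf11, an SR protein that is found with U2AF, had 12.9, 13.1, 13.0, 13.0 and 14.1 FPKM in control TAMs, 17.8, 18.4, 18.8, 17.6 and 17.0 FPKM in the miR-144 group and 18.96, 18.1, 18.9, 18.8 and 17.9 FPKM in the miR-451a group. It did not overlap between miRNA and control groups, with differences of 0.41 for miR-144 and 0.46 for miR-451a (standard error 0.03, adjusted p = 3.22e-08 and 8.76e-09).

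Srsf5 and Srsf6 are close relatives, and Srsf6 rose less, from 24.4 to 27.8 and 27.3 FPKM. Their ratio was 2.02 ± 0.0871 in control TAMs, 2.36 ± 0.147 with miR-144 and 2.43 ± 0.0513 with miR-451a, without overlap. Srsf4 and Srsf10 rose by 0.23 to 0.27 in both comparisons. Under median centring Srsf1, Srsf2, Srsf4 and Srsf6 lost both calls and Srsf10 its miR-144 call, and under quantile normalization Srsf1 and Srsf4 lost both and Srsf10 its miR-144 call. Srsf1, the classical SR protein, had differences of 0.35 and 0.28 (adjusted p = 0.0153 and 0.0445), but its values overlapped, with control sample 1 at 11.5 FPKM while the other control samples lay between 8.08 and 8.94 FPKM. Srsf2, which like Srsf5 was among the most abundant, had values of 42.6 to 47.1 FPKM in control TAMs, 45.4 to 51.5 with miR-144 and 47.4 to 50.8 with miR-451a (differences 0.10 and 0.12, adjusted p = 0.0373 and 0.0124). The miR-144 call of Srsf2 was lost when control sample 1, 3 or 4 or miR-144 sample 1, 3 or 4 was left out (adjusted p = 0.0582 to 0.1), and its difference turned negative under median centring (-0.04 and -0.02). Srsf3, Srsf7 and Srsf9 were not called, with differences from -0.01 to 0.08, and Srsf9 was called lower under median centring in both comparisons but higher with miR-451a after rescaling to TPM. Srsf12 was listed at 0 in 12 of the 15 samples, with 0.0424 FPKM as its highest value, and was not tested.

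The hnRNPs were the largest class, with 11 of 20 higher and 2 lower in the miR-144 comparison and 12 higher and 3 lower in the miR-451a comparison. Thus 65% and 75% were called, against 67.2% and 68.3% of all genes. Under median centring the split was 5 higher and 5 lower and 6 higher and 5 lower. With centring, 50% and 55% were called, against 61.5% and 63.2% of all genes. Hnrnpu (ENSMUSG00000039630, chromosome 1, 178321108 to 178337797, minus strand), also known as scaffold attachment factor A, ties RNA to chromatin. Its values were 26.5, 30.1, 27.8, 25.5 and 27.5 FPKM in control TAMs, 42.04, 43.1, 42.8, 35.9 and 42.9 FPKM in the miR-144 group and 39.5, 43.9, 35.5, 42.02 and 41.1 FPKM in the miR-451a group. The miRNA groups did not overlap the control group, with differences of 0.57 for miR-144 and 0.54 for miR-451a (standard error 0.06, adjusted p = 1.12e-06 and 2.04e-06). Hnrnpul1 and Hnrnpul2 resemble Hnrnpu, and Hnrnpul1 rose by 0.28 and 0.35 and Hnrnpul2 by 0.11 and 0.15. Under median centring Hnrnpul2 lost both calls and its miR-144 difference turned negative (-0.02). The ratio of Hnrnpul2 to Hnrnpul1 was 1.95 ± 0.0597 in control TAMs, 1.72 ± 0.0485 with miR-144 and 1.68 ± 0.0590 with miR-451a, without overlap.

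Hnrnpll (ENSMUSG00000024095, chromosome 17, 80029487 to 80062334, minus strand), known in lymphocytes for the skipping of variable exons of Ptprc, showed the largest fall of the set. Its values were 9.83, 10.54, 9.39, 10.3 and 9.37 FPKM in control TAMs, 5.91, 6.01, 5.85, 6.04 and 6.03 FPKM in the miR-144 group and 5.93, 6.39, 5.29, 5.97 and 5.94 FPKM in the miR-451a group. The miR-144 samples lay between 5.85 and 6.04 FPKM and none of the 10 miRNA samples overlapped the control samples, with differences of -0.64 for miR-144 and -0.66 for miR-451a (standard error 0.04, adjusted p = 2.99e-09 and 2.17e-09). None of its 50-base stretches occurs in another gene. Its relative Hnrnpl, which regulates many of the same exons, had 21.2, 22.5, 22.4, 23.6 and 24.0 FPKM in control TAMs, 24.8, 22.8, 23.9, 23.6 and 22.8 FPKM in the miR-144 group and 22.7, 23.4, 23.4, 23.8 and 23.7 FPKM in the miR-451a group. Hnrnpl overlapped and was not called (differences 0.05 and 0.04, adjusted p = 0.204 and 0.294), and it was called lower under median centring and higher after rescaling to TPM. The ratio of Hnrnpll to Hnrnpl was 0.435 ± 0.0316 in control TAMs, 0.253 ± 0.0116 with miR-144 and 0.252 ± 0.0172 with miR-451a.

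Members of the H and F family, which bind runs of G, were split. Hnrnph3 had 4.16, 4.39, 4.03, 4.05 and 4.42 FPKM in control TAMs, 6.66, 5.55, 5.83, 5.66 and 5.84 FPKM in the miR-144 group and 5.34, 5.45, 6.61, 6.30 and 5.61 FPKM in the miR-451a group. It did not overlap between miRNA and control groups, with differences of 0.41 for miR-144 and 0.39 for miR-451a (standard error 0.06, adjusted p = 1.27e-05 and 1.59e-05). Hnrnph1 rose by 0.26 and 0.22 (adjusted p = 0.00111 and 0.00327), whereas Hnrnph2, encoded on the X chromosome, had differences of -0.12 and -0.17 and was called lower with miR-451a (adjusted p = 0.0602 and 0.0106). Hnrnph1 lost both calls under median centring, and Hnrnph2 lost its call after rescaling to TPM. The ratio of Hnrnph2 to Hnrnph1 was 1.56 ± 0.133 in control TAMs, 1.20 ± 0.136 with miR-144 and 1.18 ± 0.133 with miR-451a, without overlap. Hnrnpf had the highest mean of the set over the 15 samples (71.0 FPKM), although Hnrnpa2b1 was higher in the miR-144 group (72.5 against 70.4 FPKM). Its values were 74.1, 63.5, 63.5, 62.5 and 80.8 FPKM in control TAMs, 81.9, 83.02, 30.7, 85.3 and 71.2 FPKM in the miR-144 group and 73.9, 70.8, 80.5, 73.4 and 70.2 FPKM in the miR-451a group. The miR-144 sample 3 stood apart at 30.7 FPKM, and without it the miR-144 difference went from -0.05 to 0.22 (adjusted p = 0.0219 in place of 0.856), while it was 0.01 without control sample 5 (adjusted p = 0.969). Hnrnpf shares 67.3% of its stretches with other genes, mainly Gm6430, which was at 30.7 to 33.2 FPKM in all miR-144 samples. The division of reads between Hnrnpf and Gm6430 was not tested.

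Members of the A and B group, which bind UAG and AU-rich RNA, were among the most abundant. Hnrnpa2b1 had means of 64.0, 72.5 and 71.4 FPKM (differences 0.18 and 0.16, adjusted p = 0.00148 and 0.00365), without overlap for miR-144 and with overlap for miR-451a. Both calls were lost under median centring (0.04 with adjusted p = 0.33 and 0.01 with adjusted p = 0.803). Hnrnpa1 had 37.9, 41.6, 36.7, 40.0 and 39.5 FPKM in control TAMs, 51.3, 48.0, 48.1, 48.9 and 47.5 FPKM in the miR-144 group and 49.5, 52.9, 49.5, 51.1 and 47.2 FPKM in the miR-451a group. It did not overlap, with differences of 0.31 for miR-144 and 0.35 for miR-451a (standard error 0.04, adjusted p = 3.68e-06 and 1.05e-06), and shared 28.3% of its stretches with other genes, mainly Gm10052. The ratio of Hnrnpa1 to Hnrnpa2b1 was 0.611 ± 0.00917 in control TAMs, 0.673 ± 0.01001 with miR-144 and 0.701 ± 0.0191 with miR-451a, without overlap. Hnrnpa3 varied more, between 45.6 and 65.0 FPKM in control TAMs, 40.6 and 55.3 with miR-144 and 39.8 and 53.9 with miR-451a. It was not called (differences -0.26 and -0.22, adjusted p = 0.0619 and 0.111), but with miR-144 it passed without control sample 3 (adjusted p = 0.0294), control sample 5 (0.0422) or miR-144 sample 1 (0.0186), and it was called lower in both comparisons under median centring. The same held with trends on length and GC removed (-0.34 and -0.31, adjusted p = 0.0176 and 0.0305). Hnrnpa0 rose by 0.20 and 0.30 and lost its miR-144 call under median centring.

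Hnrnpab, also called CArG box-binding factor A, had 56.6, 59.4, 57.2, 56.7 and 60.0 FPKM in control TAMs, 54.6, 54.7, 55.0, 55.4 and 51.4 FPKM in the miR-144 group and 55.1, 50.6, 53.9, 56.4 and 48.7 FPKM in the miR-451a group. Its values did not overlap between miRNA and control groups, yet the change was small, with differences of -0.10 for miR-144 and -0.13 for miR-451a (standard error 0.04, adjusted p = 0.0426 and 0.00795). The miR-144 call was lost when control sample 2, 3 or 5, miR-144 sample 1, 2, 3 or 5 or miR-451a sample 3 was left out (adjusted p = 0.0502 to 0.109), and after rescaling to TPM neither difference passed (-0.03 with adjusted p = 0.573 and -0.05 with adjusted p = 0.27). The miR-144 call was lost as well under quantile normalization (-0.06, adjusted p = 0.199) and with no filter, no trend or the replicate block (adjusted p = 0.0513 to 0.069). Hnrnpd, the AU-rich element factor AUF1, passed the test with miR-451a and not with miR-144 (differences 0.19 and 0.25, adjusted p = 0.0583 and 0.0154), and the miRNA groups were not shown to differ in it (adjusted p = 1). Its miR-451a call was lost under median centring and quantile normalization. Its relative Hnrnpdl rose by 0.31 and 0.34. Hnrnpk, a poly(C)-binding protein, and Hnrnpr rose by 0.14 in each comparison, but both lost their calls under median centring, where the miR-451a difference of Hnrnpk turned negative. Hnrnpk shares 37.8% of its stretches with other genes, mainly Gm7964, which had means of 25.0, 29.6 and 28.2 FPKM. Hnrnpc and Hnrnpm were not called (differences 0.07 to 0.12).

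**Figure D3:**
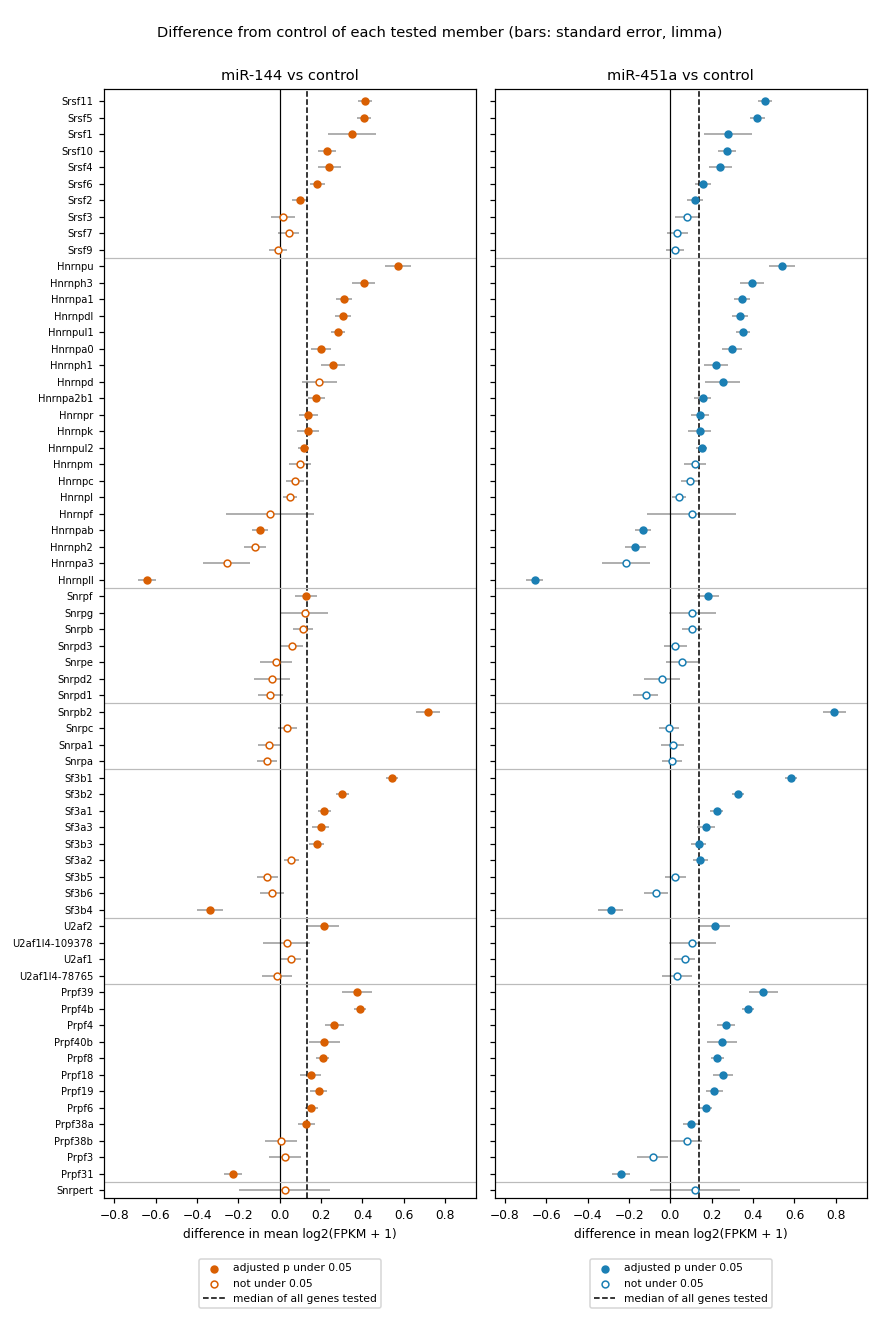
Points are the difference from control in mean log2(FPKM + 1) of 67 of the 68 tested genes, with standard errors from limma, filled where the adjusted p was under 0.05, and the dashed line is the median of all genes tested (0.13 and 0.14). Most genes lie near that line, Snrpb2, Sf3b1 and Hnrnpu lie well to its right, and Hnrnpll lies farthest to the left.

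**Figure D4:**
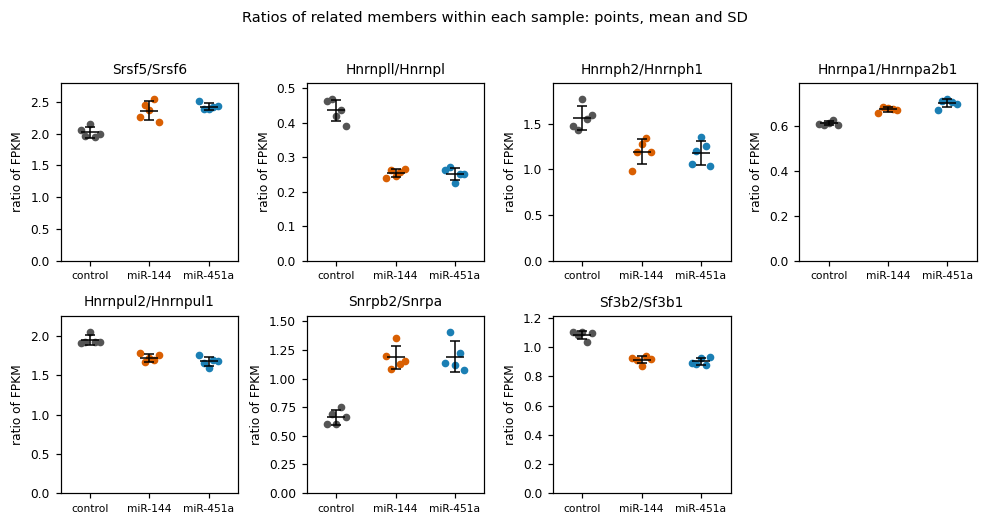
Each panel shows the FPKM ratio of 2 related genes within each of the 15 samples (points) with the mean and SD of each group of 5, for the 7 ratios in which neither miRNA group overlapped the control group. Snrpb2 to Snrpa goes from 0.660 to 1.18 and 1.19, and Hnrnpll to Hnrnpl from 0.435 to 0.253 and 0.252.

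Ratios were computed for 19 pairs of related genes in all. In 7 of them neither miRNA group overlapped the control group, as given above, and in Hnrnpa3 to Hnrnpa2b1 only the miR-144 group did not overlap. The remaining 11 overlapped in both comparisons, among them Srsf7 to Srsf3, Srsf4 to Srsf6, Srsf9 to Srsf1, Hnrnpdl to Hnrnpd and U2af2 to U2af1. Among single genes, 53.9% of all genes did not overlap in the miR-144 comparison and 55.2% in the other. The share for ratios of other gene pairs was not computed. These ratios are a description and were not tested.

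Genes of the splicing pathway outside this set were described from 7 lists that hold 172 genes, of which 166 were tested. With miR-144, 102 rose and 16 fell, and with miR-451a, 103 rose and 16 fell, which is 71.1% and 71.7% called against 67.2% and 68.3% of all genes. The medians were 0.20 and 0.21 against 0.13 and 0.14 for all genes, and under median centring the split was 59 higher and 36 lower and 57 higher and 35 lower. With centring, 57.2% and 55.4% were called, against 61.5% and 63.2% of all genes, so the share lay below that of all genes. For the lists that follow, 47.1% of all genes were higher and 20.1% lower with miR-144, and 48.1% and 20.3% with miR-451a, on the main scale. Among SR-related proteins and SR protein kinases, 18 of 25 rose and 3 fell in each comparison (11 higher and 3 lower in each under median centring). Among other regulators that bind RNA, 29 of 41 rose and 4 fell with miR-144, and 31 rose and 4 fell with miR-451a (19 higher and 6 lower and 17 higher and 6 lower under median centring). In the LSm ring and SMN assembly list, which stands close to the Sm class in function, 6 of 21 rose and 3 fell with miR-144, and 7 rose and 2 fell with miR-451a, whereas under median centring 2 were higher and 7 lower and 2 higher and 8 lower. Of the U1, U5, tri-snRNP and minor spliceosome proteins, 12 of 22 rose and 1 fell in each comparison, and under median centring 7 were higher and 5 lower with miR-144 and 7 higher and 4 lower with miR-451a. In the list of Prpf19 complex and catalytic step factors, 16 and 15 of 21 rose and 1 fell in each comparison, and under median centring the split was 5 and 5 with miR-144 and 6 and 4 with miR-451a. In that of helicases and branch point factors, 11 of 20 rose in each and 3 and 4 fell, and under median centring 8 were higher and 7 lower and 7 higher and 6 lower. In that of the exon junction complex and its partners, 10 and 9 of 16 rose and 1 fell in each, against 7 higher and 3 lower and 7 higher and 4 lower under median centring.

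Clk1, a kinase that phosphorylates SR proteins and releases them from nuclear speckles, was the largest rise in these lists. It lay between 7.77 and 9.07 FPKM in control TAMs, 16.7 and 17.7 with miR-144 and 16.5 and 17.6 with miR-451a (difference 0.96 for both, adjusted p = 2.95e-12 and 2.96e-12). Its relative Clk4 went the other way, from 12.04 ± 0.845 FPKM to 9.94 ± 0.509 and 9.90 ± 0.458, with differences of -0.25 and -0.26 (adjusted p = 0.000272 and 0.000219). The polypyrimidine tract-binding Ptbp3 rose from 18.1 to 29.6 and 30.5 FPKM (0.68 and 0.72), the muscleblind factor Mbnl1 from 15.3 to 24.9 and 26.5 (0.67 and 0.73), the U1-associated Luc7l3 to 16.9 and 16.2 FPKM (0.64 and 0.57) and Tial1 from 6.83 to 10.9 and 12.1 (0.61 and 0.74), all without overlap. The largest fall was that of Smg5, a factor of nonsense-mediated decay, from 15.5 ± 0.721 FPKM to 9.16 ± 0.610 and 8.93 ± 0.654, with differences of -0.70 and -0.74 (adjusted p = 1.15e-08 and 6.39e-09). The poly(C)-binding Pcbp1 fell from 133 to 109 and 108 FPKM (-0.29 and -0.30). Raly, an hnRNP by family but not by symbol, was called lower with miR-451a (difference -0.28, adjusted p = 0.0251) and not with miR-144, where sample 1 was at 29.9 FPKM and without it the difference was -0.32 (adjusted p = 2.31e-07). The miR-451a call of Raly was lost without control sample 5 (difference -0.26, adjusted p = 0.0528).

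**Figure D5:**
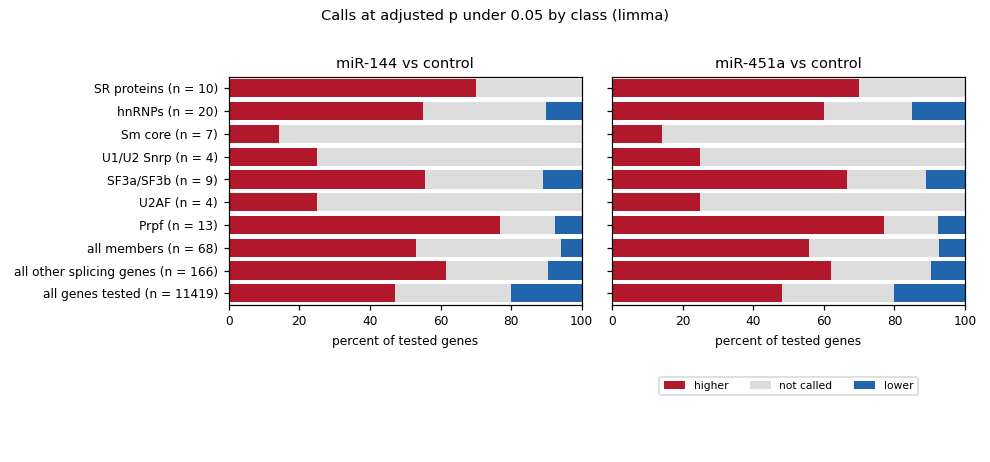
Bars give the percent of tested genes in each class that were higher, not called or lower at an adjusted p under 0.05, with the number tested in brackets. The Sm core (1 of 7 called), the U1 and U2 proteins (1 of 4) and U2AF (1 of 4) have the longest grey bars, and Prpf genes (11 of 13) the shortest among the 7 classes.

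Genes of the set varied little between samples of a group. The median within-group SD on the log2 scale was 0.0778 over the 68 genes, against 0.0939 over all genes, and 0.0768 against 0.0827 among genes that averaged 5 FPKM or more. The most variable were Snrpert (0.378), Hnrnpf (0.371), Srsf1 (0.199) and Hnrnpa3 (0.198). The genes called higher with miR-144 had a median longest transcript of 3586 bases and those not called of 2402 bases, a difference also seen in all genes (3524 and 2556 bases). With trends on length and GC removed, 33 genes were higher and 5 lower with miR-144 and 36 higher and 5 lower with miR-451a. Of all genes, 66.8% and 68.1% were called in that setting, and 69.6% and 70% of those calls were rises. Whether transcript length bears on these calls was not tested further.

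Facts of the samples that moved with the groups are given here for all the results above. Steps in the low FPKM values implied between 15.5 and 30.3 M fragments for a sample. The macrophage list, 10 genes in 11 rows, summed to 10699 to 11638 FPKM in control TAMs and 18973 to 20566 FPKM in the miRNA groups, with 9 rows higher and 1 lower in each comparison. All 7 hepatocyte markers were listed at 0 in all 15 samples. The fibroblast and stellate list summed to 129 to 165 FPKM in control TAMs and 215 to 322 FPKM in the miRNA groups, the B and plasma cell list to 8.52 to 11.1 and 75.9 to 100.2 FPKM, almost all of it Ighm, with Ms4a1 under 1 FPKM in every sample, and the T cell list to 1.37 to 1.72 and 5.37 to 9.51 FPKM, almost all of it Cd4, with Cd3e and Cd3g at 0. The cycling list summed to 77.8 to 89.3 and 56.4 to 61.2 FPKM, most of it Pcna, with means of 61.8, 39.6 and 36.8 FPKM. Without Pcna the other 9 genes summed to 19.2 to 22.5 FPKM in control TAMs, 17.7 to 20.3 with miR-144 and 19.4 to 25.2 with miR-451a, with overlapping groups. The 13 mitochondrially encoded mRNAs summed to 20688 to 22637 and 16648 to 19421 FPKM, with 12 lower in each comparison. The endothelial list summed to 3.70 to 4.30 FPKM in control TAMs and 4.66 to 5.93 FPKM in the miRNA groups, most of it Kdr, with Clec4g at 0. The dendritic cell list summed to 0.282 to 0.352 and 0.496 to 0.816 FPKM, and the NK cell list to 0.192 to 0.416 and 0.0323 to 0.168 FPKM, with every gene of both lists under 1 FPKM. The hepatoma cell list lay between 0.637 and 1.79 FPKM and overlapped between groups, and the neutrophil and erythroid lists did not exceed 1.31 FPKM. The part of these shifts in the changes of splicing factors and hnRNPs was not tested.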

How the data were processed

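mRNA was measured by RNA-seq in 15 TAM samples, 5 per group, grouped by the labels. The deposited table holds FPKM values per gene that the authors made from their reads, and the submitters' processing notes name FastQC 0.11.2, STAR and StringTie without their roles or order. The genome build, annotation and use of strand are not given in the sources used here, so overlapping and antisense genes cannot be told apart. No counts were used. Steps in low FPKM values gave an implied depth (36.3% to 49.6% of low values lay within 0.05 of a multiple, against 10% by even spacing), too few to recover whole reads.

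Genes that averaged 1 FPKM or more were tested on log2(FPKM + 1), which understates the change of low genes, with limma 3.58.1 (R 4.3.3), a mean-variance trend and all 3 groups in 1 fit, and p-values were adjusted by Benjamini-Hochberg over all 11419 genes. Each adjusted p in the text comes from this test, and a call means an adjusted p under 0.05. Tables and plots used Python 3.11.15, numpy 2.4.6, pandas 2.3.3 and matplotlib 3.10.9. The steps were tested on simulated data. Members and lists were chosen with earlier results of these data known. Named genes were the 6 largest rises and the 6 largest falls per comparison among called genes without overlap, the 12 highest mean levels, the 3 smallest p between miRNA groups, and 4 rises and 4 falls of other splicing genes. Genes named beyond this rule complete a class. Values of 1 tested member are not reported here by name, although it enters the counts. Alternatives were other pseudocounts, filters, scalings, fits, a replicate block and leaving out each sample. Coordinates are those of GENCODE M21 on GRCm38 (99.67% of gene identifiers matched) and promoters those of RefSeq on GRCm38.p6. Sequence shared with other genes was the share of 50-base stretches of the longest transcript found in any other gene on either strand, and the gene named is the main partner. It was also large for Srsf4 (47.3%), Srsf2 (35.2%), Hnrnpab (29%), Hnrnpm (28.8%), Hnrnpa3 (28.25%) and U2af2 (24.7%).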

Additional observations from a re-analysis of the deposited data

Results flagged for a closer look

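In 6 of the 66 groups of 5 samples examined among the named genes, 1 sample lay far from the others by Dixon's criterion, which chance flags in about 1 in 20 groups, or 3.3 here. Hnrnpf was at 30.67 FPKM in miR-144 sample 3, and the next lowest miR-144 sample was at 71.25 FPKM. Hnrnpu was lowest in miR-144 sample 4 at 35.88 FPKM, with the nearest sample at 42.04 FPKM. Hnrnpab was lowest in miR-144 sample 5 at 51.43 FPKM, with the nearest at 54.62 FPKM. Hnrnph3 and Hnrnpa2b1 were both highest in miR-144 sample 1, at 6.662 FPKM (nearest 5.841) and 77.98 FPKM (nearest 72.52). Srsf11 was highest in control sample 5 at 14.09 FPKM, with the nearest at 13.08 FPKM.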

How the results depend on the processing

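The limits lie mainly in scaling. Median centring gave 14 genes higher and 13 lower with miR-144 and 18 higher and 14 lower with miR-451a, with median differences of -0.0066 and -0.0021. Quantile normalization gave 24 higher and 9 lower and 26 higher and 11 lower (48.5% and 54.4% called, against 61.3% and 62.9% of all genes), with medians of 0.0415 and 0.0856. Rescaling to TPM gave 44 higher and 3 lower and 46 higher and 3 lower (69.1% and 72.1%, against 70.1% and 71.9%), with medians of 0.2062 and 0.2298. Genes without overlap numbered 21 and 20 under median centring (30.9% and 29.4%, against 49% and 51% of all genes) and 19 and 21 under quantile normalization (27.9% and 30.9%, against 48.5% and 50.6%), but 36 and 39 after rescaling to TPM (52.9% and 57.4%, against 57% and 58.9%). Median centring changed the sign of 19 of the 68 differences with miR-144 and 24 with miR-451a, among them genes called on the main scale: Prpf38a, Srsf2, Snrpf and Hnrnpul2 with miR-144, and Prpf38a, Sf3a2, Sf3b3, Srsf2 and Hnrnpk with miR-451a. Among the genes of the naming rule, it turned the differences of Hnrnpf (-0.0417) and Sf3a2 (-0.0009) with miR-451a, of Hnrnpul2 (-0.0192) and Sf3a2 (-0.0786) with miR-144, and of Snrpb (-0.0212 and -0.0407) and Srsf2 (-0.0369 and -0.0244) with both. Quantile normalization turned Sf3a2 with miR-144 (-0.0348) and rescaling to TPM turned Hnrnpf with miR-144 (0.0210). Centring and rescaling by construction move all differences together, and no other cause was tested.

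With 1 sample left out at a time, the number called ranged from 37 to 41 with miR-144 and from 40 to 45 with miR-451a, and was 0 between the miRNA groups in limma. The Hnrnpf difference with miR-144 ranged from -0.1378 (without miR-144 sample 4) to 0.2240 (without sample 3), and was 0.0111 without control sample 5. The other settings (pseudocount 0.1, mean of at least 5 FPKM, no filter, no trend, only the groups compared, trends on length and GC removed, the last chosen after seeing the data) called 36 to 40 genes with miR-144 and 39 to 44 with miR-451a. Of all genes, 32.8% and 34.2% were called with no filter (29540 genes) and 71.9% and 72.6% with a mean of at least 5 FPKM (6639 genes). In the rest of these settings the share was 66.8% to 67.1% with miR-144 and 68.1% to 68.4% with miR-451a.

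A replicate block built from the replicate number gave 42 called genes for the miR-144 comparison and 43 for the miR-451a comparison. Under this block, the called share of all tested genes was 67.5% and 68.8%. Among the named genes, Snrpb gained a miR-144 call under the block (difference 0.1129, adjusted p = 0.0434). Hnrnpab lost its miR-144 call there (difference -0.0952, adjusted p = 0.0566). Deviations of same-numbered samples correlated by -0.0122 on average for miR-144 and control (1 of 5 pairs over 0.1, other numbers 0.0031), 0.1395 for miR-451a and control (3 of 5, other numbers -0.0347) and 0.1006 for the miRNA groups (4 of 5, other numbers -0.0252). Not every pair passed 0.1 and not every sample correlated best with its own number, so the samples were treated as unpaired. Srsf12 and Snrpn, under the filter of 1 FPKM, were not tested, and what depth contributes to their low values was not tested.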
